A study of Mus musculus with 8 samples.

Results

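Protein folding in the endoplasmic reticulum (ER) of gastric epithelial cells was examined through 40 genes: 4 stress sensors, 6 stress transcription factors or effectors, 11 chaperones or cochaperones, 8 disulfide isomerases or oxidases, and 11 genes of ER-associated degradation and the ER membrane. The genes were taken by symbol, as the rows whose NCBI gene number belongs to each symbol. All 40 were found among 38920 rows, Ero1l and Ero1lb under their current symbols Ero1a and Ero1b, and all 40 passed the filter on low values. Total RNA of sorted stomach epithelium had been sequenced in 8 libraries, all of strain C57BL/6. A high fat diet was fed in 4 (HFD22, HFD23, HFD26 and HFD27), and the other 4 are controls whose titles carry the letters ND (ND15.17.18, ND16, ND19 and ND20). The labels give no genetic change, sex, age, length of feeding, diet composition or sort gate, and do not say whether a library is 1 mouse. The title ND15.17.18 lists 3 numbers.

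The ER folds and oxidises the proteins that a cell secretes, and the zymogen-filled chief cells and the mucous cells of the stomach make large amounts of them. When unfolded proteins build up, the sensors IRE1, PERK and ATF6 start the unfolded protein response, in which XBP1 and ATF6 raise chaperones, isomerases and degradation genes. PERK slows translation by phosphorylating eIF2α, which allows ATF4 to be made, and ATF4 raises CHOP, a factor that can lead to cell death. Proteins that cannot be folded are drawn back to the cytosol and destroyed, a route called ER-associated degradation.

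Several genes of this response share a promoter sequence, the ER stress response element (ERSE). It is written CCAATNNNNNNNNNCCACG, where N is any base, and is known as a site bound by ATF6 together with NF-Y. RefSeq promoter windows of GRCm38.p6 were found for 34 of the 40 genes, all but Ern2, Atf6, Creb3l1, Hyou1, Manf and Derl1, and the 250 bases before each start were searched on both strands. The element was present in 10 of the 34 windows (29.4%), against 33 of 27025 windows of all genes (0.122%). Since the element was defined on genes such as Hspa5, its presence here is a description of the gene group and not a result of the diet comparison. The 11 copies are shown because they lie before some of the chaperone, isomerase or oxidase, and degradation genes described below. They read 5′ to 3′ along the element, with its fixed bases in capitals.

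Hspa5: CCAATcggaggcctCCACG
Hsp90b1 (distal): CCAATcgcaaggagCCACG
Hsp90b1 (proximal): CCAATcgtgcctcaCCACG
Calr: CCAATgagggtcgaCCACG
Canx: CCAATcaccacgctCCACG
Dnajc3: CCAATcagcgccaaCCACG
Creld2: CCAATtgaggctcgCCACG
Pdia6: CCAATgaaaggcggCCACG
Ero1lb: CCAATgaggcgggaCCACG
Syvn1: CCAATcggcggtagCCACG
Derl3: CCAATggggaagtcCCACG

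In GRCm38.p6, counted from 1 and with the strand on which the element reads, they lay for Hspa5 at chr2:34772025-34772043 (plus), the distal Hsp90b1 copy at chr10:86705638-86705656 (minus), the proximal Hsp90b1 copy at chr10:86705533-86705551 (plus), Calr at chr8:84847075-84847093 (plus) and Canx at chr11:50325800-50325818 (minus). The others lay for Dnajc3 at chr14:118937827-118937845 (plus), Creld2 at chr15:88819520-88819538 (minus), Pdia6 at chr12:17266491-17266509 (plus), Ero1lb at chr13:12565682-12565700 (minus), Syvn1 at chr19:6046532-6046550 (plus) and Derl3 at chr10:75893242-75893260 (minus). The nearest copy to a start was that of Syvn1, 26 to 44 bases before it, and the copy of Hspa5 lay 47 to 65 bases before it.

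A shorter related element, ERSE-II (ATTGGNCCACG), was found in the window of Herpud1 only among the 34, and in 0.0333% of all windows. The core of the XBP1-binding UPR element (TGACGTGG) was in none of the 34 windows and in 0.503% of all windows. The ATF4 composite element (TGATGNAA) was in the Herpud1 window and in 3.53% of all windows. No match overlapped a match to another of the motifs in these windows. A match is a run of letters and not a shown binding site, and a window without a match says nothing of the factor. The full windows of Hspa5, the textbook target of the pathway, and Pdia6, the gene with the smallest p in the diet comparison, are given with the ERSE in capitals. The Hspa5 window is chr2:34771840-34772089 and the Pdia6 window chr12:17266339-17266588, both on the plus strand.

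Hspa5: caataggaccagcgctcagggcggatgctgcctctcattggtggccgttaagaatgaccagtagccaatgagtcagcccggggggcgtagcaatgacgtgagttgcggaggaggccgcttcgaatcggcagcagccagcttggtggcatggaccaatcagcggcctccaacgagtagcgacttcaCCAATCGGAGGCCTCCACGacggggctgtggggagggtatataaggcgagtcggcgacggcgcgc
Pdia6: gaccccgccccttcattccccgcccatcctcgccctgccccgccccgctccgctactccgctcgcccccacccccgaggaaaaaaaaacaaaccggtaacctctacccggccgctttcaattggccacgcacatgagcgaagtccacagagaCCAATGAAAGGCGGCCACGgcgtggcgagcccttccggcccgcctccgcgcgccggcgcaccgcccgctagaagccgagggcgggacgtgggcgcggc

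**Figure D1:**
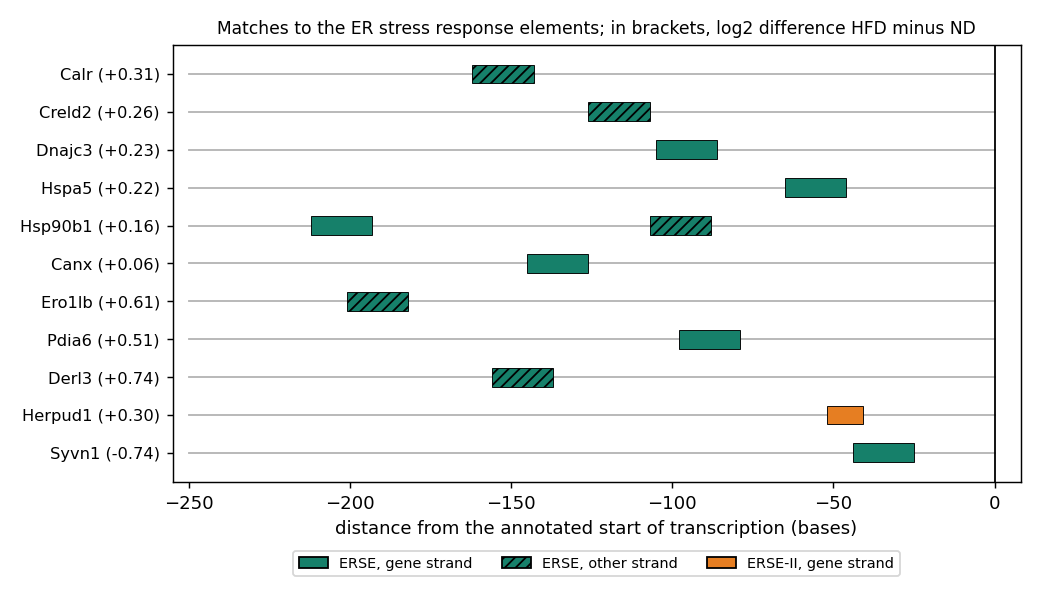
Positions of ERSE and ERSE-II matches in the 250 bases before the start of transcription (x axis, bases from the start) for the 11 genes that held one. Filled boxes lie on the strand of the gene and hatched boxes on the other strand. Brackets give the log2 difference HFD minus ND, which is positive for 10 of the 11 genes and -0.74 for Syvn1.

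The deposited tables hold 1 log2 value per gene and library, on an arbitrary scale with a common total of 36.9 M per library. Steps between low values gave estimated depths of 31.4 to 46 M reads in HFD libraries and 16.4 to 63.2 M in ND libraries. The libraries were unequal in composition: the top 20 rows held 29.0% to 43.1% of the total in HFD libraries and 27.8% to 85.7% in ND libraries (exact two-sided permutation p = 0.314), the highest in ND15.17.18. HFD23 was least like the rest, with Spearman correlations over all rows of 0.845 to 0.896, against 0.910 to 0.980 for the other pairs. Values below are therefore log2(value + 1) after median-ratio scaling, relative to the typical gene, unless the deposited scale is named. Gastric epithelial RNA was plain in every library, with Pgc, the gene of pepsinogen C, at 21.20 to 21.58 in HFD libraries and 20.22 to 21.33 in ND libraries. The summed level of 12 leukocyte markers was 10.13 to 10.55 in HFD libraries and 9.93 to 10.86 in ND libraries, most of it Kit, at 9.75 to 10.11 in HFD libraries and 9.64 to 10.61 in ND libraries. Ptprc, the general leukocyte marker CD45, was at 6.65 to 6.96 in HFD libraries and 5.06 to 7.65 in ND libraries.

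The chaperones and the disulfide isomerases stood slightly higher in HFD libraries and the sensors slightly lower, but no single gene of the 40 passed the test across all genes. All 11 chaperones, 7 of 8 isomerases and oxidases and 8 of 11 degradation and membrane genes had a positive difference, against 0 of 4 sensors and 2 of 6 factors. The median difference was 0.23 for chaperones, 0.27 for isomerases and oxidases, 0.26 for degradation and membrane genes, -0.11 for sensors and -0.13 for factors. Over all 40 genes it was 0.21, and over all 27401 rows tested, many of them low, it was 0.12. Among rows of at least 30 in all 8 libraries, it was 0.21 for the 38 genes held there and 0.013 for all such rows. These differences between roles were not tested.

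With limma and Benjamini-Hochberg adjustment over all rows, 0 of the 40 genes were called higher and 0 lower, where the background was 0.00365% of rows called higher and 0.0073% called lower. Adjusted p-values of the 40 genes ran from 0.154 for Pdia6 to 0.903 for Wfs1. At an unadjusted limma p under 0.05, 11 genes were higher and 2 lower, against 6.43% and 4.09% of all rows. In 9 of 40 genes every HFD library lay above every ND library, against 4.72% of all rows, and in 1 gene, Syvn1, every HFD library lay below, against 3.12%. Without ND15.17.18 these counts were 6 and 2, without HFD26 13 and 1, and without ND16 10 and 3. With fewer libraries groups separate more easily. No share of all rows was taken for these smaller sets, so their counts cannot be set against 4.72% and 3.12%. A positive difference was found for 28 of 40 genes and for 59.9% of all rows. Among rows of at least 30 in all 8 libraries, which hold 38 of the genes, the same 3 shares of rows were 5.66%, 6.77% and 51.7%, and the genes numbered 9, 1 and 27.

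On the deposited scale nearly everything had a higher mean in HFD libraries, with a median difference of 0.90 over all rows and 1.07 over the 40 genes. The divisors used in median-ratio scaling were 1.06 to 1.22 in HFD libraries, 0.176 in ND15.17.18 and 0.677 to 1.37 in other ND libraries. ND15.17.18 therefore weighs heavily in this shift. The deposited scale was not fitted without it, so the shift and the signs there were not separated from that library. On the deposited scale 39 of the 40 differences were positive, against 89.9% of all rows. Again 0 genes were called higher and 0 lower, against 0.0474% and 0.0109% of rows. Directions given below are relative to the typical gene, and 11 genes that were lower after scaling were higher on the deposited scale, Ern1, Ern2, Eif2ak3, Atf6, Atf4, Ddit3, Trib3, Ero1l, Sel1l, Syvn1 and Wfs1. The exception was Creb3l1, at -0.90 after scaling and -0.04 on the deposited scale.

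**Figure D2:**
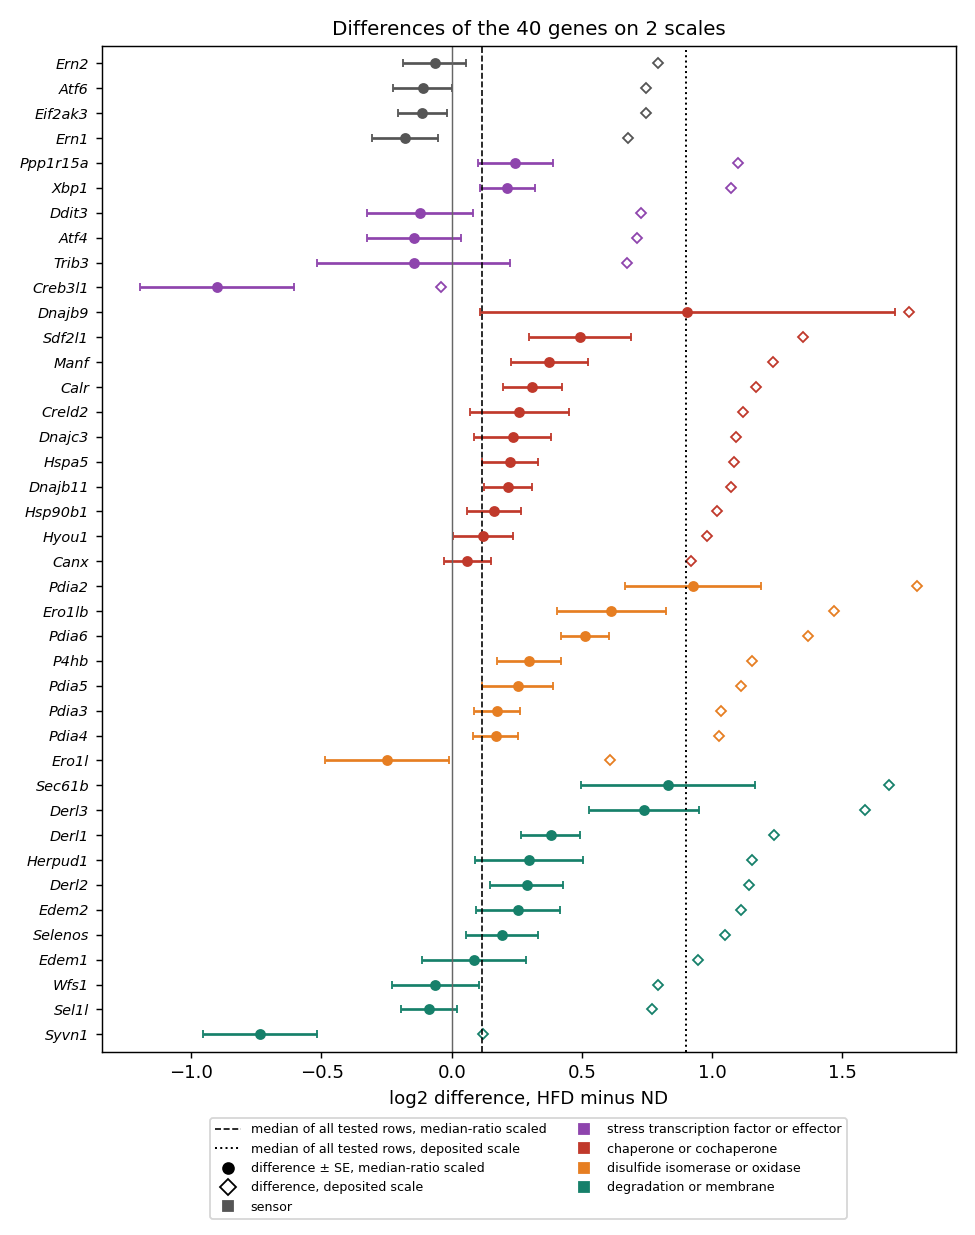
Log2 difference HFD minus ND (x axis) for each of the 40 genes, grouped by role. Filled circles with bars are the differences ± SE after median-ratio scaling and open diamonds those on the deposited scale, with the median of all tested rows as a dashed line at 0.12 and a dotted line at 0.90. The median of the 40 genes is 0.21 after scaling and 1.07 on the deposited scale.

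Levels of different genes were compared per kb of exon, using exon lengths of GENCODE M21. On this log2 scale the most abundant was Pdia2, an isomerase named for its abundance in the pancreas, at 14.09 ± 0.30 in HFD libraries and 13.17 ± 0.54 in ND libraries (SD, n = 4 each). P4hb, the classical protein disulfide isomerase, followed at 13.38 ± 0.09 in HFD libraries and 13.09 ± 0.22 in ND libraries (SD, n = 4 each), then Calr, the lectin chaperone calreticulin, at 12.99 ± 0.09 in HFD libraries and 12.68 ± 0.19 in ND libraries (SD, n = 4 each). In ND libraries the distance of Pdia2 to P4hb was smaller than the SD of Pdia2, whereas in HFD libraries it was larger than both SDs. The next group, Hspa5, Hsp90b1, Pdia3, Canx, Ern2 and Xbp1, lay close together. Hspa5 stood at 11.77 ± 0.08 in HFD libraries and 11.55 ± 0.17 in ND libraries (SD, n = 4 each) and Xbp1 at 11.39 ± 0.16 in HFD libraries and 11.18 ± 0.09 in ND libraries (SD, n = 4 each), and neighbours within this group, other than Pdia3 and Canx, differed by less than the SD of at least 1 of them in ND libraries. The lowest of the 40 was Trib3, a pseudokinase induced through ATF4 and CHOP, at 4.46 ± 0.16 in HFD libraries and 4.61 ± 0.54 in ND libraries (SD, n = 4 each).

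Each gene below is given in the order HFD22, HFD23, HFD26 and HFD27, then ND15.17.18, ND16, ND19 and ND20, with n = 4 libraries per group. Among the sensors, Ern1 encodes the widely expressed IRE1α, the kinase and RNase that splices Xbp1 mRNA. Ern1 was at 10.38, 10.15, 10.10 and 10.42 in HFD libraries, against 10.58, 10.57, 10.32 and 10.29 in ND libraries. Its groups overlapped, and the difference was -0.18 ± 0.13 (SE, adjusted p = 0.625). Ern2 encodes IRE1β, a relative of IRE1α found mainly in mucous epithelia. Ern2 was at 12.91, 12.86, 12.81 and 12.85 in HFD libraries, against 12.92, 12.66, 12.89 and 13.23 in ND libraries. The 4 HFD libraries lay within the range of the ND libraries, whose extremes were ND16 and ND20, and the difference was -0.07 ± 0.12 (SE, adjusted p = 0.857). It was -0.16 without ND16 and 0.03 without ND20.

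Per kb of exon, Ern2 averaged 11.29 ± 0.04 in HFD libraries and 11.35 ± 0.23 in ND libraries, far above Ern1, at 7.23 ± 0.16 in HFD libraries and 7.41 ± 0.16 in ND libraries (SD, n = 4 each). The log2 ratio of Ern2 to Ern1, which does not depend on the scaling of a library, was 2.59 ± 0.14 in HFD libraries and 2.48 ± 0.36 in ND libraries (SD, n = 4 each). The groups overlapped, and the difference of 0.11 had an exact two-sided permutation p of 0.600, also after adjustment over the 4 ratios examined. With 4 libraries against 4 the smallest p is 0.0286. The difference of this ratio was -0.02 without ND16 and 0.27 without ND20.

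Eif2ak3 encodes PERK, the kinase that phosphorylates the translation factor eIF2α. Eif2ak3 was at 10.96, 10.80, 10.88 and 10.95 in HFD libraries, against 11.05, 10.92, 11.06 and 11.001 in ND libraries. The HFD libraries ran from below the ND libraries into their range, with HFD22 and HFD27 above ND16, and the difference was -0.11 ± 0.09 (SE, adjusted p = 0.674), and -0.07 without HFD23. Atf6 encodes the membrane-bound factor that is cut in the Golgi to release its active part. Atf6 was at 10.53, 10.69, 10.60 and 10.64 in HFD libraries, against 10.75, 10.96, 10.58 and 10.61 in ND libraries. Most libraries fell in a narrow band with ND16 the highest, and the difference was -0.11 ± 0.11 (SE, adjusted p = 0.731), and -0.04 without ND16. None of the 4 sensors passed the test.

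Among the factors, Xbp1 carries the intron that IRE1 removes, which the deposited gene values cannot separate from the unspliced form. Xbp1 was at 13.24, 12.97, 12.94 and 13.21 in HFD libraries, against 12.74, 12.92, 12.90 and 12.95 in ND libraries. HFD26 fell just below ND20, the other 3 HFD libraries were above all ND libraries, and the difference was 0.21 ± 0.11 (SE, adjusted p = 0.513), and 0.14 without ND15.17.18. Atf4 is the factor translated when eIF2α is phosphorylated. Atf4 was at 11.85, 12.17, 11.96 and 12.01 in HFD libraries, against 11.75, 11.90, 12.38 and 12.55 in ND libraries. The ND libraries spread on both sides of the HFD libraries, and the difference was -0.15 ± 0.18 (SE, adjusted p = 0.779). Leaving out 1 library at a time, it ran from -0.31 without ND15.17.18 to -0.013 without ND20. Ddit3 encodes CHOP, the factor tied to cell death under lasting stress. Ddit3 was at 7.31, 7.78, 7.35 and 7.35 in HFD libraries, against 7.51, 7.28, 7.84 and 7.65 in ND libraries. HFD23 stood above the other 3 HFD libraries, which lay near ND16, and the difference was -0.12 ± 0.20 (SE, adjusted p = 0.837). It ran from -0.23 without HFD23 to -0.03 without ND19.

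Creb3l1 encodes OASIS, a membrane-bound factor related to ATF6. Creb3l1 was at 10.69, 10.74, 10.35 and 10.52 in HFD libraries, against 12.17, 10.54, 11.58 and 11.61 in ND libraries. The 4 HFD libraries were low together with ND16, and the other 3 ND libraries were higher. The difference, -0.90 ± 0.30 (SE, adjusted p = 0.339), was the most negative of the 40 genes and did not pass the test. Muc5ac, the pit cell mucin, was also lower in HFD libraries, at 15.80 to 16.19 against 16.71 to 18.54 in ND libraries, with a difference of -1.61 (adjusted p = 0.205). The other pit cell markers did not share this size of difference. Gkn1 was at -0.12 (adjusted p = 0.891), Tff1 at -0.12 (adjusted p = 0.892) and Gkn2 at 0.07 (adjusted p = 0.933). The summed level of the 4 pit cell markers was 18.93 to 19.70 in HFD libraries and 18.98 to 20.10 in ND libraries. The part of mucous cells in the Creb3l1 values was not tested. In bulk libraries fewer cells of a type and less RNA per cell cannot be told apart.

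The remaining factors overlapped between groups. Ppp1r15a, which encodes GADD34, the subunit that reverses eIF2α phosphorylation, averaged 8.79 ± 0.18 in HFD libraries and 8.54 ± 0.13 in ND libraries (SD), with a difference of 0.24 ± 0.15 (SE, adjusted p = 0.575). Trib3 averaged 5.58 ± 0.16 in HFD libraries and 5.72 ± 0.53 in ND libraries (SD), with a difference of -0.15 ± 0.37 (SE, adjusted p = 0.898), which ran from -0.36 without ND20 to 0.016 without ND19. Within a library, the log2 ratio of Ddit3 to Hspa5 averaged -6.41 ± 0.19 in HFD libraries and -6.05 ± 0.37 in ND libraries (SD, n = 4 each, exact two-sided permutation p = 0.171, adjusted 0.267). The log2 ratio of Atf4 to Xbp1 averaged -1.09 ± 0.26 in HFD libraries and -0.73 ± 0.32 in ND libraries (SD, n = 4 each, exact two-sided permutation p = 0.200, adjusted 0.267). Both ratios overlapped between the groups.

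**Figure D3:**
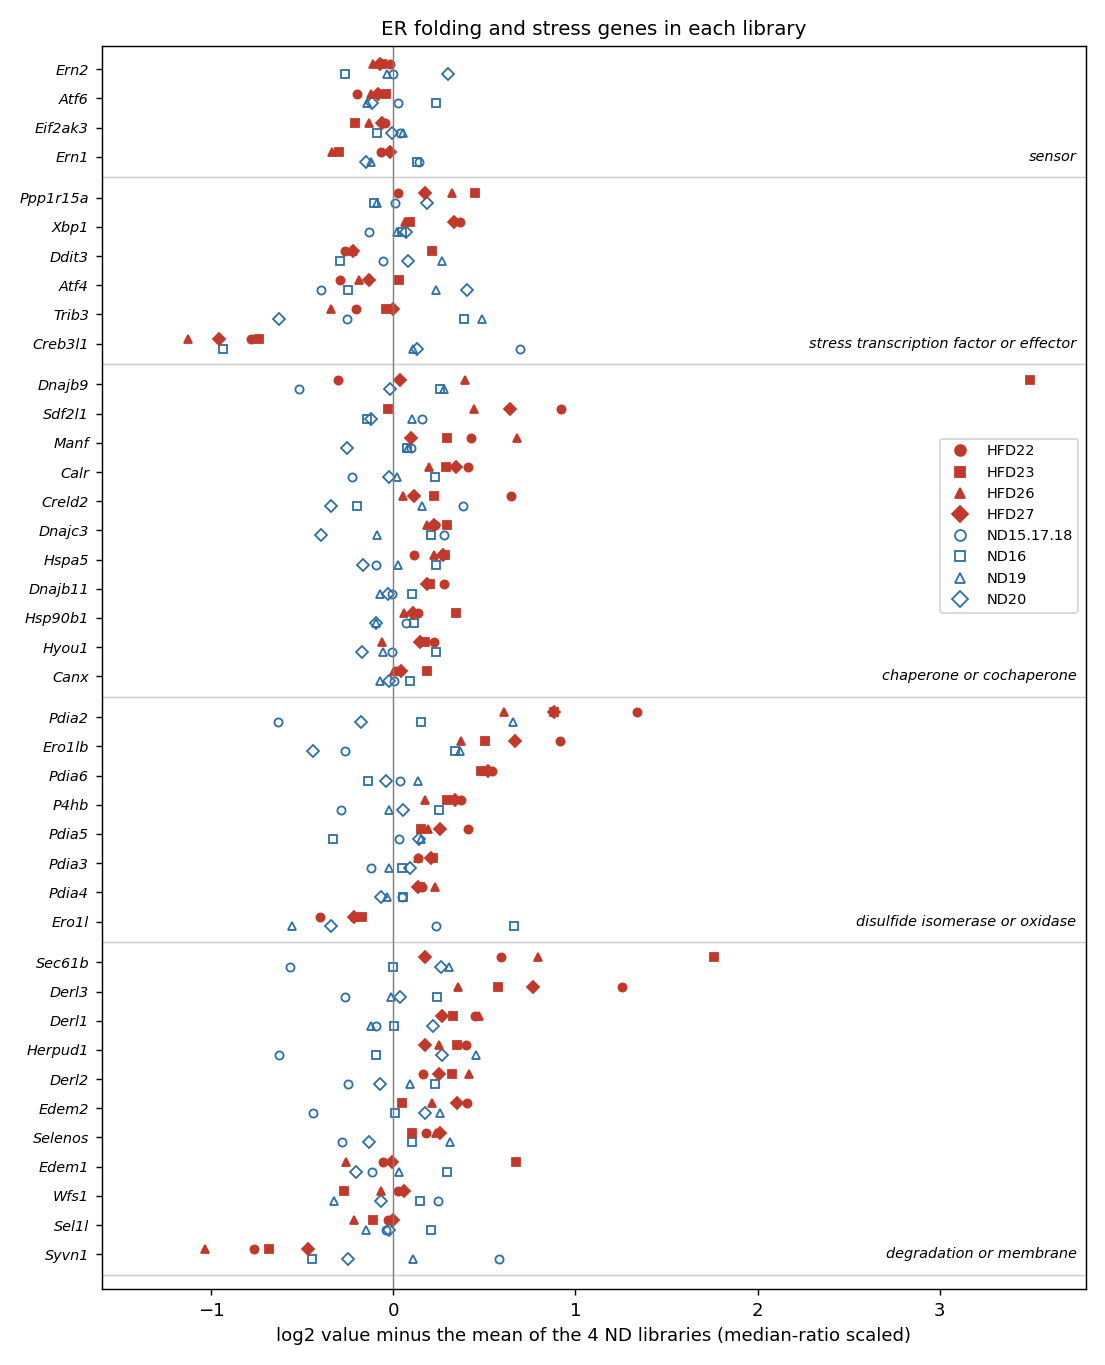
Each of the 40 genes (rows, grouped by role) in each library, as log2 value minus the mean of the 4 ND libraries (x axis) after median-ratio scaling. Filled red symbols are HFD and open blue symbols ND libraries. Chaperone and isomerase symbols of HFD libraries lie mostly right of 0, and Dnajb9 in HFD23 lies far from all other points.

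Among the chaperones, Hspa5 encodes BiP, the HSP70 of the ER that also holds the sensors inactive. Hspa5 was at 13.74, 13.91, 13.86 and 13.90 in HFD libraries, against 13.54, 13.86, 13.66 and 13.46 in ND libraries. HFD23 and HFD27 were above all ND libraries, while HFD22 and HFD26 were below ND16, and the difference was 0.22 ± 0.11 (SE, adjusted p = 0.504). Hsp90b1 encodes GRP94, the HSP90 of the ER. Hsp90b1 was at 13.63, 13.84, 13.56 and 13.60 in HFD libraries, against 13.57, 13.61, 13.40 and 13.40 in ND libraries. HFD23 was the highest, HFD22 lay just above ND16 and the other HFD libraries within the ND range, with a difference of 0.16 ± 0.10 (SE, adjusted p = 0.597), and 0.11 without HFD23. Calr and Canx encode calreticulin and calnexin, the chaperones that hold newly made glycoproteins by their sugars. Calr was at 14.62, 14.50, 14.41 and 14.55 in HFD libraries, against 13.98, 14.44, 14.23 and 14.19 in ND libraries. For Calr only HFD26 fell below the highest ND library, ND16, and the difference was 0.31 ± 0.11 (SE, adjusted p = 0.383), and 0.20 without ND15.17.18.

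Canx was at 13.54, 13.71, 13.53 and 13.57 in HFD libraries, against 13.53, 13.62, 13.46 and 13.51 in ND libraries. Canx was nearly level, with a difference of 0.06 ± 0.09 (SE, adjusted p = 0.818), and 0.02 without HFD23. Canx is the membrane-bound partner of Calr and carries an ERSE as well, shown above. The log2 ratio of Hspa5 to Canx was 0.26 ± 0.07 in HFD libraries and 0.10 ± 0.14 in ND libraries (SD, n = 4 each), with a difference of 0.16 (exact two-sided permutation p = 0.114, adjusted 0.267). ND16 lay within the HFD range of this ratio.

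Both groups were apart in 2 chaperones. Dnajb11 encodes ERdj3, a cochaperone that hands unfolded proteins to BiP. Dnajb11 was at 10.95, 10.87, 10.86 and 10.85 in HFD libraries, against 10.66, 10.77, 10.60 and 10.64 in ND libraries. The lowest HFD library was 0.08 above the highest ND library, and the difference was 0.22 ± 0.09 (SE, adjusted p = 0.455). Manf encodes a small secreted protein that binds BiP. Manf was at 10.13, 9.999, 10.38 and 9.80 in HFD libraries, against 9.80, 9.78, 9.78 and 9.45 in ND libraries. Every HFD library was above every ND library, but HFD27 and ND15.17.18 were only 0.00060 apart, and the difference was 0.38 ± 0.15 (SE, adjusted p = 0.423).

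Dnajb9 encodes ERdj4, a cochaperone that is strongly induced by ER stress and represses IRE1. Dnajb9 was at 8.10, 11.90, 8.80 and 8.45 in HFD libraries, against 7.89, 8.66, 8.69 and 8.39 in ND libraries. HFD23 stood far above the other 7 libraries, which overlapped. The difference was 0.91 ± 0.80 (SE, adjusted p = 0.696), and 0.05 without HFD23. In the same library the summed level of 13 immediate early genes was 14.57, against 13.41 to 13.59 in the other HFD libraries and 13.75 to 14.48 in ND libraries, and Atf3 stood at 10.82, against 9.10 to 9.41 in the other HFD libraries and 9.54 to 9.84 in ND libraries. Their part in the Dnajb9 value of HFD23 was not tested.

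The other 4 chaperones overlapped between groups and had positive differences. Sdf2l1, a partner of ERdj3, averaged 9.74 ± 0.40 in HFD libraries and 9.25 ± 0.15 in ND libraries (SD), with a difference of 0.49 ± 0.20 (SE, adjusted p = 0.420). Creld2, a small ER protein induced by stress, averaged 10.22 ± 0.27 in HFD libraries and 9.96 ± 0.33 in ND libraries (SD), with a difference of 0.26 ± 0.19 (SE, adjusted p = 0.639), 0.13 without HFD22 and 0.14 without ND20. Dnajc3, which encodes the cochaperone p58IPK, had a difference of 0.23 ± 0.15 (SE, adjusted p = 0.595), and 0.10 without ND20. Hyou1, the exchange factor GRP170 that resets BiP, had a difference of 0.12 ± 0.12 (SE, adjusted p = 0.711), 0.19 without ND16 and 0.06 without ND20.

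Oxidative folding held 5 of the 9 genes whose HFD libraries all lay above the ND libraries. The isomerases form and rearrange disulfide bonds, and the ERO1 oxidases renew their oxidising power. The median over the 8 genes was 12.46 to 12.52 in HFD libraries and 12.09 to 12.20 in ND libraries. In every library this median was the midpoint of Pdia6 and Pdia4, which are given below, so its separation adds nothing to theirs. Pdia6 encodes P5, an isomerase that works with BiP and also acts on the sensors. Pdia6 was at 12.88, 12.82, 12.84 and 12.86 in HFD libraries, against 12.37, 12.20, 12.47 and 12.30 in ND libraries. The HFD libraries lay within a narrow band, 0.34 above the highest ND library. The difference was 0.51 ± 0.09 (SE, adjusted p = 0.154), a ratio of 1.43, with the smallest p of the 40 genes, and between 0.46 and 0.56 when any 1 library was left out.

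Ero1lb encodes the ERO1 oxidase typical of secretory cells such as those of the pancreas and of gastric chief cells. Ero1lb was at 10.32, 9.91, 9.78 and 10.07 in HFD libraries, against 9.14, 9.75, 9.77 and 8.97 in ND libraries. The groups were apart by 0.0032, between HFD26 and ND19, and the difference was 0.61 ± 0.21 (SE, adjusted p = 0.354). Pdia3 encodes ERp57, the isomerase that works with calreticulin and calnexin. Pdia3 was at 13.24, 13.32, 13.24 and 13.30 in HFD libraries, against 12.98, 13.15, 13.07 and 13.19 in ND libraries. The groups were apart by 0.04, and the difference was 0.18 ± 0.09 (SE, adjusted p = 0.518), and 0.11 without ND15.17.18. Pdia4 encodes ERp72, an isomerase with 3 thioredoxin-like active sites. Pdia4 was at 12.12, 12.11, 12.19 and 12.10 in HFD libraries, against 12.01, 12.02, 11.93 and 11.89 in ND libraries. The groups were apart by 0.08, and the difference was 0.17 ± 0.09 (SE, adjusted p = 0.520).

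Pdia5 encodes PDIR, an isomerase that acts on ATF6. Pdia5 was at 9.997, 9.74, 9.77 and 9.84 in HFD libraries, against 9.62, 9.26, 9.74 and 9.73 in ND libraries. The groups were apart by 0.0020, with ND16 well below the rest, and the difference was 0.25 ± 0.14 (SE, adjusted p = 0.541), and 0.14 without ND16. Pdia2, the most abundant gene of the 40 per kb, had the largest difference. Pdia2 was at 15.29, 14.83, 14.56 and 14.83 in HFD libraries, against 13.32, 14.10, 14.61 and 13.77 in ND libraries. ND19 was above HFD26 and the other libraries did not cross, and the difference was 0.93 ± 0.26 (SE, adjusted p = 0.281), a ratio of 1.90.

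P4hb averaged 14.90 ± 0.09 in HFD libraries and 14.60 ± 0.22 in ND libraries (SD), with a difference of 0.30 ± 0.12 (SE, adjusted p = 0.445), and 0.17 without ND15.17.18. Only HFD26 was below the highest ND library. Ero1l, the more widely expressed ERO1 oxidase, went the other way. Ero1l was at 10.43, 10.66, 10.62 and 10.61 in HFD libraries, against 11.06, 11.49, 10.28 and 10.49 in ND libraries. The HFD libraries lay inside the wide range of the ND libraries, in which ND15.17.18 and ND16 were high, and the difference was -0.25 ± 0.24 (SE, adjusted p = 0.712). It was -0.03 without ND16 and -0.43 without ND19.

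**Figure D4:**
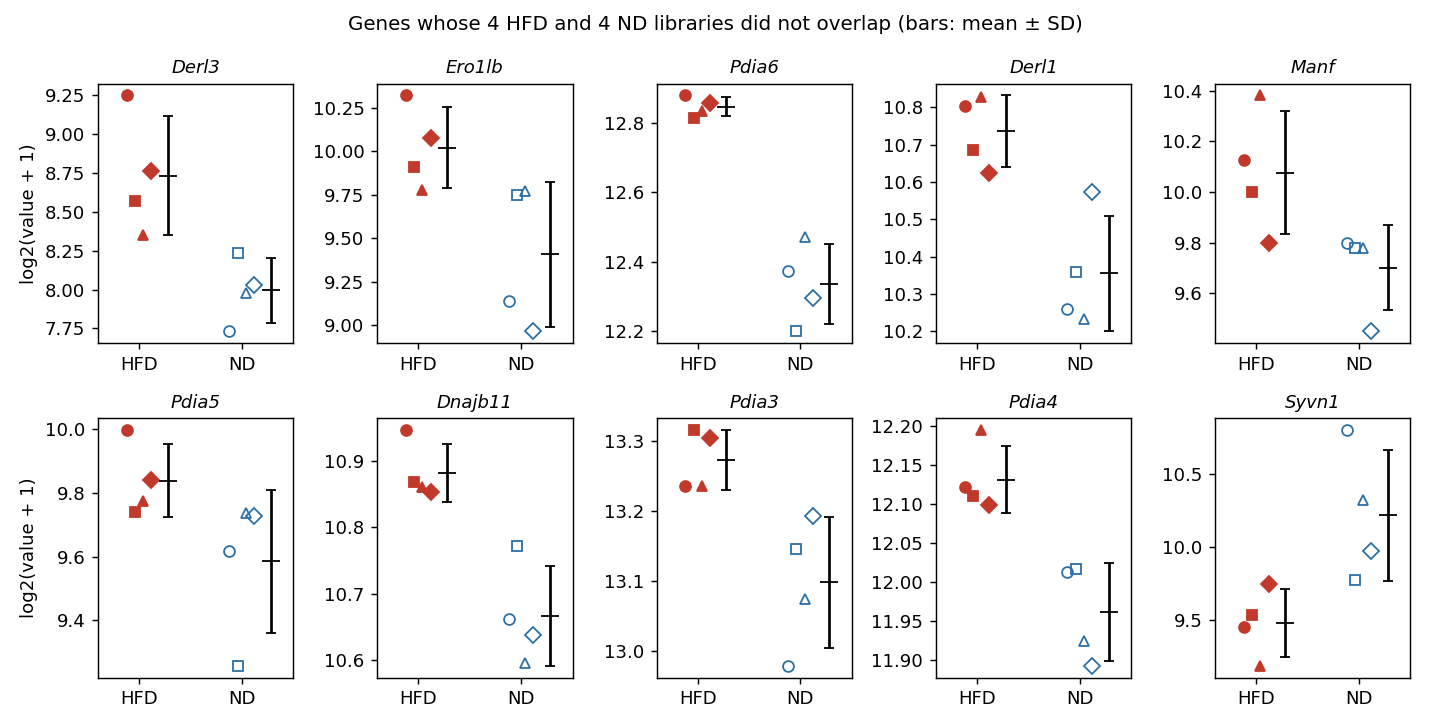
Log2(value + 1) after median-ratio scaling (y axis, a separate range for each gene that does not start at 0) for the 10 genes whose groups did not overlap. Points are libraries and bars the mean ± SD of 4 libraries. HFD libraries are above ND libraries in 9 panels and below them for Syvn1, and the widest gap is that of Pdia6, 0.34.

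Among the degradation genes, the derlins are membrane proteins of the channel through which unfolded proteins leave the ER. Derl3, the derlin of secretory cells, had the larger separation. Derl3 was at 9.25, 8.57, 8.35 and 8.76 in HFD libraries, against 7.73, 8.24, 7.98 and 8.03 in ND libraries. The groups were apart by 0.11, with HFD22 the highest, and the difference was 0.74 ± 0.21 (SE, adjusted p = 0.283). Derl1 was at 10.80, 10.69, 10.83 and 10.62 in HFD libraries, against 10.26, 10.36, 10.23 and 10.57 in ND libraries. For Derl1 the groups were apart by 0.05, and the difference was 0.38 ± 0.11 (SE, adjusted p = 0.295). Derl2 averaged 9.27 ± 0.11 in HFD libraries and 8.99 ± 0.21 in ND libraries (SD) with overlap, and its difference was 0.29 ± 0.14 (SE, adjusted p = 0.502), and 0.18 without ND15.17.18.

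Syvn1 encodes HRD1, the ubiquitin ligase at the centre of this route. Syvn1 was at 9.45, 9.53, 9.19 and 9.75 in HFD libraries, against 10.80, 9.77, 10.32 and 9.97 in ND libraries. Every HFD library was below every ND library, HFD27 by 0.02 from ND16, and ND15.17.18 was the highest. The difference was -0.74 ± 0.22 (SE, adjusted p = 0.299), and on the deposited scale it was 0.12. Sel1l, the partner that stabilises HRD1, averaged 12.24 ± 0.10 in HFD libraries and 12.32 ± 0.15 in ND libraries (SD), with a difference of -0.09 ± 0.11 (SE, adjusted p = 0.774), -0.02 without ND16 and -0.14 without ND19. Herpud1, a membrane protein that recruits HRD1 complexes and a well-known stress target, averaged 12.29 ± 0.10 in HFD libraries and 11.998 ± 0.47 in ND libraries (SD), with a difference of 0.30 ± 0.21 (SE, adjusted p = 0.625). Without ND15.17.18 it was 0.06, and without ND19 it was 0.45.

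Sec61b encodes the β subunit of the channel through which new proteins enter the ER. Sec61b was at 8.46, 9.63, 8.67 and 8.05 in HFD libraries, against 7.31, 7.87, 8.18 and 8.13 in ND libraries. HFD23 was the highest and ND15.17.18 the lowest, HFD27 fell among the ND libraries, and the difference was 0.83 ± 0.33 (SE, adjusted p = 0.425). Without HFD23 it was 0.52. Edem1 and Edem2 encode lectins that mark misfolded glycoproteins for removal, and their differences were 0.09 ± 0.20 (SE, adjusted p = 0.886) and 0.26 ± 0.16 (SE, adjusted p = 0.596). The Edem1 value rested on HFD23, at 11.77 against 10.84 to 11.09 in the other HFD libraries and 10.89 to 11.39 in ND libraries, and was -0.10 without it, 0.02 without ND15.17.18 or ND20 and 0.20 without HFD26. The Edem2 difference was 0.08 without ND15.17.18. Selenos, a selenoprotein of the same machinery, had a difference of 0.19 ± 0.14 (SE, adjusted p = 0.631), 0.07 without ND15.17.18 and 0.30 without ND19. Wfs1, the membrane protein mutated in Wolfram syndrome, had a difference of -0.06 ± 0.17 (SE, adjusted p = 0.903), which ran from -0.17 without ND19 to 0.0105 without HFD23.

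Markers of several cell types were also higher in HFD libraries, and none of these genes was called by limma. The exact test of a marker sum cannot give p below 0.0286. After adjustment over 13 lists, a sum could pass only if most lists reached that p. The adjusted p-values therefore decide nothing for the acinar and smooth muscle sums below, which reached it. All 7 chief cell markers had positive differences, and their summed level was 21.22 to 21.60 in HFD libraries and 20.23 to 21.34 in ND libraries (exact two-sided permutation p = 0.0571, adjusted over 13 marker lists 0.186). The sum was almost wholly Pgc, whose ND19 value lay within the HFD range. All HFD libraries were above all ND libraries for Cblif, which encodes intrinsic factor, at 14.70 to 15.39 in HFD libraries and 12.49 to 14.07 in ND libraries, and for Cckar, a cholecystokinin receptor, at 11.42 to 12.10 in HFD libraries and 10.20 to 11.08 in ND libraries. Bhlha15, which encodes the secretory cell factor MIST1, was at 9.72 to 10.32 in HFD libraries and 8.82 to 9.49 in ND libraries, again without overlap, with a difference of 0.86 ± 0.19 (SE, adjusted p = 0.205). The part of chief cell number in the isomerase, chaperone and degradation values was not tested.

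Of 16 pancreatic acinar markers 10 had positive differences, and their sum was 17.04 to 17.74 in HFD libraries and 15.74 to 16.93 in ND libraries (exact two-sided permutation p = 0.0286, adjusted 0.186). The sum was almost wholly Clps, colipase, at 16.96 to 17.67 in HFD libraries and 15.61 to 16.82 in ND libraries. The trypsin gene Try10 was at 10.37 to 11.04 in HFD libraries and 8.44 to 9.59 in ND libraries, with a difference of 1.70 (adjusted p = 0.119), and its close relatives Try5 and Try4, with which it may share reads, had differences of 1.38 and 1.11. Prss1 was at 5.61 to 6.41 in HFD libraries and 0 to 5.72 in ND libraries. The carboxypeptidase gene Cpa1 was at 0 in HFD23, HFD26, HFD27 and ND15.17.18, and no higher than 2.94 in any library. All 9 smooth muscle markers had positive differences, with a sum of 12.04 to 12.63 in HFD libraries and 10.02 to 11.53 in ND libraries (exact two-sided permutation p = 0.0286, adjusted 0.186). All 5 intestinal goblet cell markers with a row had positive differences, with a sum of 10.90 to 13.57 in HFD libraries and 9.68 to 11.53 in ND libraries (exact two-sided permutation p = 0.0571, adjusted 0.186). Plasma and B cell markers, from cells rich in ER, were low, with a sum of 4.63 to 6.73 in HFD libraries and 4.93 to 7.08 in ND libraries, and Igkc was at 0 in all 8. The part of smooth muscle, goblet and acinar RNA in the ER gene values was not tested.

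**Figure D5:**
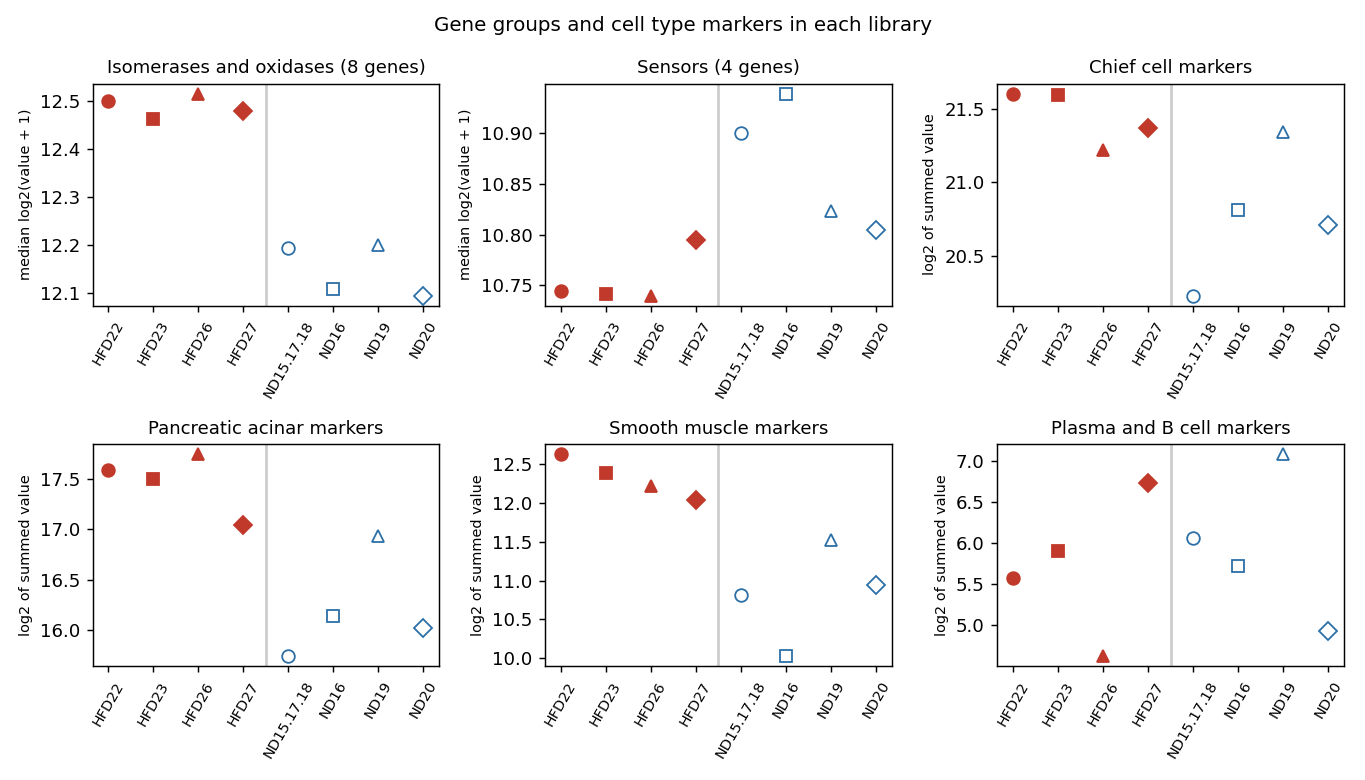
Median log2(value + 1) of the 8 isomerase and oxidase genes and of the 4 sensors, and log2 of the summed value of 4 marker lists, in each library (x axis) after median-ratio scaling. The y axes differ between panels and do not start at 0. The isomerase and oxidase median is the midpoint of Pdia6 and Pdia4 in every library. That median and the acinar and smooth muscle sums are higher in all HFD libraries than in all ND libraries. The chief cell sum, almost wholly Pgc, overlaps through ND19, and plasma and B cell values overlap.

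The rest of the pathway was read from 8 lists of 158 other genes, of which 156 were tested. None of the 156 was called in either direction, 104 had a positive difference, and all HFD libraries were above all ND libraries in 26 and below them in 7, where all rows gave 59.9%, 4.72% and 3.12%. At an unadjusted limma p under 0.05, 29 of the 156 were higher and 8 lower, against 6.43% and 4.09% of all rows. Genes of N-glycosylation, the attachment and trimming of sugars on new proteins, had 1 direction: the differences of all 18 tested were positive (median 0.27), and 8 had groups that did not overlap. Krtcap2, Dad1 and Ganab, parts of the sugar-transferring complex and of glucosidase II, had differences of 0.70 ± 0.18 (SE, adjusted p = 0.245), 0.55 ± 0.14 (SE, adjusted p = 0.248) and 0.33 ± 0.10 (SE, adjusted p = 0.318). Of 23 translocon and signal peptide genes 17 were positive, with a median of 0.23, and Ssr4, Spcs2 and Sec61g had differences of 0.69 ± 0.18 (SE, adjusted p = 0.259), 0.44 ± 0.12 (SE, adjusted p = 0.264) and 1.83 ± 0.51 (SE, adjusted p = 0.271).

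Of 20 other chaperones and prolyl isomerases 17 were positive, with a median of 0.19. Hspa13, Cnpy2 and Sil1, the last an exchange factor for BiP, had differences of 0.60 ± 0.14 (SE, adjusted p = 0.213), 0.63 ± 0.16 (SE, adjusted p = 0.248) and 0.39 ± 0.11 (SE, adjusted p = 0.291). Of 15 other disulfide isomerases and related enzymes 10 were positive, with a median of 0.19. Prdx4, the peroxiredoxin of the ER, had a difference of 0.71 ± 0.18 (SE, adjusted p = 0.248), the membrane thioredoxin Tmx4 -0.54 ± 0.15 (SE, adjusted p = 0.274), and Vkorc1, the vitamin K epoxide reductase, 0.43 ± 0.15 (SE, adjusted p = 0.369).

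On the deposited scale the medians of the 8 lists ran from 0.81 to 1.09. After scaling, the stress-signalling lists held about as many negative as positive differences. Of 17 other regulators of the response 8 were positive, with a median of -0.01, led by Bhlha15 as above, by Ppp1r15b, the constitutive counterpart of GADD34 in eIF2α dephosphorylation, at -0.30 ± 0.08 (SE, adjusted p = 0.270), and by Atf6b, a relative of Atf6, at 0.34 ± 0.17 (SE, adjusted p = 0.507). Of 19 ATF4 and CHOP targets 10 were positive, with a median of 0.06. Nupr1, a stress-induced chromatin protein, Psat1, an enzyme of serine synthesis, and Ddit4, an inhibitor of mTORC1, had differences of 1.08 ± 0.25 (SE, adjusted p = 0.206), 0.85 ± 0.20 (SE, adjusted p = 0.207) and 0.64 ± 0.16 (SE, adjusted p = 0.248). Of 25 other degradation genes 15 were positive, with a median of 0.06, and Rnf5, Man1b1 and Os9 had differences of 0.41 ± 0.13 (SE, adjusted p = 0.327), 0.19 ± 0.09 (SE, adjusted p = 0.497) and 0.20 ± 0.10 (SE, adjusted p = 0.521). Of 19 genes of COPII vesicles, which carry cargo out of the ER, 9 were positive, with a median of -0.05, and the coat genes Sec16a, Sec24b and Sec24a had differences of -0.56 ± 0.12 (SE, adjusted p = 0.205), -0.996 ± 0.25 (SE, adjusted p = 0.245) and -0.33 ± 0.11 (SE, adjusted p = 0.346).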

How the data were processed

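Total RNA of sorted cells was freed of ribosomal RNA and sequenced, per the labels' protocols. The submitters' processing notes name mm10 and bedtools 2.17.0, with no role. For the aligner, the annotation, strandedness and normalization, nothing is given in the sources used here. The authors deposited 1 table per library with 38920 log2 values, floored at 0, whose antilogs sum to 36.9 M in every library. Deposited zeros were kept as zeros after taking antilogs. The step between low values was read as 1 read; only 24.6% to 34.9% of values below 2000 steps were whole multiples within 0.01, so reads were not recovered, no count test was run and counting errors are unknown.

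Libraries were rescaled by median ratios: for the 11115 rows reaching 30 in all 8 libraries, each value was divided by the row's mean, and the library's median quotient was its divisor. This is relative to the typical gene, and leaves a median difference of 0.12. The 27401 rows reaching 1 in 4 or more libraries were tested on log2(value + 1) in R 4.3.3 by limma 3.58.1 with its trend and robust options, group as the only term, and Benjamini-Hochberg adjustment over all rows at 0.05. This scale understates differences of low genes. Ratios and marker sums were compared by exact two-sided permutation over the 70 divisions of the libraries. No pairing or batch is given. Nothing says that libraries are separate animals, so p-values measure the spread between these libraries.

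The 40 genes, the gene lists and the scaling were chosen with earlier results of these data known. Values in every library are given for the sensors, Xbp1, Atf4, Ddit3, Hspa5, Hsp90b1, Calr and Canx, for genes whose groups did not overlap, for called genes, and for the 3 largest and 3 smallest differences. Of each other pathway list, the 3 genes with the smallest p are named. The marker genes Muc2 and Igha, and 2 of the 158 pathway genes, were not analysed here. Of 13 marker lists, those of parietal, neck mucous, fibroblast, endothelial and enteroendocrine cells are given with the closing observations.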

Additional observations from a re-analysis of the deposited data

Results flagged for a closer look

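In 3 genes 1 library lay far from the other 3 of its group, by a gap, as a share of the group's range, above the critical value of Dixon's test for 4 samples. Ddit3 in HFD23 was at 7.78, against 7.31 to 7.35 in the other HFD libraries, a gap of 0.913 of the range. Dnajb11 in HFD22 was at 10.95, against 10.85 to 10.87 in the other HFD libraries, a gap of 0.847 of the range. Manf in ND20 was at 9.45, against 9.78 to 9.80 in the other ND libraries, a gap of 0.943 of the range. Chance gives such a gap in about 1 group in 20, so 4.4 would be expected among the 88 groups examined.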

How the results depend on the processing

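No gene of the 40 was called under any alternative. The lowest adjusted p, 0.0811, was that with only rows of at least 30 in all 8 libraries. On the deposited scale the median difference of the 40 genes was 1.07 and the count of genes with all HFD libraries below all ND libraries was 0, and 11 differences changed sign: Ern1 0.68, Ern2 0.79, Eif2ak3 0.75, Atf6 0.75, Atf4 0.71, Ddit3 0.73, Trib3 0.67, Ero1l 0.61, Sel1l 0.77, Syvn1 0.12 and Wfs1 0.79. The common total there sets the typical row 0.90 higher in HFD, and the scaling divisor furthest from 1 was that of ND15.17.18, 0.176. With quantile normalization Ern2 was at 0.010. Without HFD23 and ND15.17.18 the median was 0.13, the count below was 2, and Canx was at -0.0012, Dnajb9 at -0.15, Edem1 at -0.17 and Wfs1 at 0.066; the cause was not tested. Leaving out 1 library at a time, the median ran from 0.15 to 0.22, the count below from 1 to 3, the count above from 6 to 13, Ern2 from -0.16 to 0.032, Trib3 from -0.36 to 0.016, Edem1 from -0.10 to 0.20, Wfs1 from -0.17 to 0.0105 and the ratio of Ern2 to Ern1 from -0.017 to 0.27. With fewer libraries groups separate more easily, and no share of all rows was taken beside those counts above and below. Other pseudocounts, no filter on low values and plain limma options changed no direction. No paired analysis was possible because the groups share no replicate numbers. Read depth was only estimated, so counting error was not separated from other spread.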

Other observations

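The other marker lists overlapped between the groups. The summed log2 level was 18.36 to 19.11 in HFD libraries and 17.95 to 19.04 in ND libraries for parietal cells (exact two-sided permutation p = 0.486), 16.85 to 17.42 in HFD libraries and 16.53 to 17.69 in ND libraries for neck mucous cells (p = 0.914, exact), 11.52 to 12.73 in HFD libraries and 10.82 to 13.10 in ND libraries for fibroblasts (p = 0.657, exact), 10.23 to 10.85 in HFD libraries and 9.31 to 11.09 in ND libraries for endothelial cells (p = 0.600, exact), and 15.80 to 16.59 in HFD libraries and 15.74 to 16.82 in ND libraries for enteroendocrine cells (p = 0.80, exact).

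The 9 genes whose HFD libraries all lay above the ND libraries included 7 with a promoter window. Of these 7, 3 held an ERSE, Pdia6, Ero1lb and Derl3, against 10 of all 34 genes with a window (29.4%). Syvn1, the gene whose HFD libraries all lay below, held one as well. In each library the median deviation of the 40 genes from their own means over the 8 libraries was 0.07, 0.11, 0.01 and 0.07 in HFD22, HFD23, HFD26 and HFD27, against -0.11, -0.04, -0.09 and -0.15 in ND15.17.18, ND16, ND19 and ND20. Over all tested rows, in the same order, these medians were 0.13, 0.01, -0.04 and 0.07 in HFD libraries. For ND libraries they were -0.09, -0.03, 0.11 and -0.19. Their sign was opposite to that of the 40 genes in HFD26 and ND19 and the same in the other libraries.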
